A study of Mus musculus with 4 samples.

Results

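The RNA-seq levels of 10 adipocyte genes, Adipoq, Cfd, Car3, Plin1, Plin4, Cidec, Fabp4, Retn, Lep and Pparg, were followed in the irradiated small intestine (SI). They were chosen by gene name from 56748 genes in the deposited count table, in the knowledge that Cfd and Car3 were among the genes with the largest falls in p53-/- SI. The difference between genotypes thus chose the set and is given here as a description, with no p-value. All 4 libraries came from mice given 12 Gy total body irradiation (TBI) from a Cs-137 source, and the SI was taken at day 1 post-TBI. Libraries 7 and 8 were from p53+/+ (WT) mice and libraries 9 and 10 from mice lacking p53 in the whole body (p53-/-), so that every mouse was irradiated and no unirradiated SI was among the samples. Both strains were bought as separate stocks, the mice were young adults matched for age and gender, and the sex of each mouse was not given. Library numbers serve as names and pair no animals. RNA was extracted from the SI, and the paper names no part of it. How far mesentery or fat had been trimmed from the tissue was not given in the sources used here. Genotype and the amount of fat left on the tissue thus cannot be told apart.

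Adipocytes store triglyceride in a single large lipid droplet and secrete hormones, the adipokines. White fat lies in the mesentery that carries vessels to the gut and can remain attached to a piece of dissected SI, and single adipocytes also lie in the gut wall. Pparg, a nuclear receptor, drives their differentiation together with C/EBP factors. Several genes of the set are also expressed in other cells of the gut: Fabp4 in capillary endothelium and macrophages, and Pparg and Cidec in enterocytes, which package dietary fat. In a bulk library, fewer cells of a type and less RNA per cell cannot be told apart.

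The libraries held 15005479 to 22173164 counts, and the level of a gene is given in CPM, its counts scaled to library size with TMM factors. At these depths 3 counts correspond to 0.131 to 0.195 CPM. Trp53, the targeted gene, was at 57.7 and 47.1 CPM in libraries 7 and 8 and at 19.8 and 22.5 CPM in libraries 9 and 10. Replicates spread more than counting error alone would give, with a chi-square of 34.5 per degree of freedom between libraries 7 and 8 and of 48.9 between libraries 9 and 10. Library 8 stood apart by smooth muscle genes, whose summed level over 10 genes was 7.75 times that of library 7. Library 10 stood apart by B cell and lymph node genes, 452 CPM over 8 genes against 8.79 to 33.0 CPM in the others, and by the ribosomal gene Rn18s-rs5, 4.59% of its counts against at most 0.863%. Epithelial genes were high in all 4 libraries, with a sum of 14542 to 26114 CPM over 10 genes.

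RefSeq promoters were at hand for 8 of the 10 genes, with 11 entries, and Car3 and Fabp4 had none. The 250 bases before the start are shown for 4 genes that were at or near 0 in p53-/- SI and for the upstream start of Cidec, which was not. They are read 5′ to 3′ on the strand of the gene from GRCm38.p6, and capitals mark motif matches.
Adipoq, chr16:23146286-23146535, + strand: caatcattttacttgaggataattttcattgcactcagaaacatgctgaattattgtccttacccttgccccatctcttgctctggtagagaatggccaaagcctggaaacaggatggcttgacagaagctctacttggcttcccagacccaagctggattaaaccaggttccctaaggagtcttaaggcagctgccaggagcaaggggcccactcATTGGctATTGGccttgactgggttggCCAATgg
Cfd, chr10:79890603-79890852, + strand: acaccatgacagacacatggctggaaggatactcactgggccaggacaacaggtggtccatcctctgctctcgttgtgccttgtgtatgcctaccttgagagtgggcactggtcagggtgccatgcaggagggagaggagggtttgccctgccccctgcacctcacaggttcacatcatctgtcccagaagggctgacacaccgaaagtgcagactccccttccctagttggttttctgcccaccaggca
Plin1, chr7:79732777-79733026, - strand: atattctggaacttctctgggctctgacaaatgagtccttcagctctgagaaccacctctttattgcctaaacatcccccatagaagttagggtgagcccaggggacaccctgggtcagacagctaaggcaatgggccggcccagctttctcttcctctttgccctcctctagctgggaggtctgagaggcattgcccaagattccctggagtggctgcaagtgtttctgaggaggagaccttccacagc
Retn, chr8:3655520-3655769, + strand: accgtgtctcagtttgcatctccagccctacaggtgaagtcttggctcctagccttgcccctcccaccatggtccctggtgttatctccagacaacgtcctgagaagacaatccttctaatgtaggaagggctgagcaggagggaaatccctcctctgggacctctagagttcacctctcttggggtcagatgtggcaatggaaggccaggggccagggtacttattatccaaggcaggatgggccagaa
Cidec, chr6:113435761-113436010, - strand: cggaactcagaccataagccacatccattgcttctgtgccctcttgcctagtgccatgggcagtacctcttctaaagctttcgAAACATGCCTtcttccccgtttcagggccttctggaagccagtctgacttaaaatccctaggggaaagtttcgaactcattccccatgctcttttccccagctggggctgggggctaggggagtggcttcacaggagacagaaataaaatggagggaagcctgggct
The search ran on both strands of windows of 300 bases, from 250 before the start to 50 after it, and took in the TATA box (TATAAA), the CCAAT box (CCAAT), the nuclear receptor half-site (AGGTCA), a pair of such half-sites in the same direction with 1 base between them, the C/EBP palindrome (TTGCGCAA), the E-box (CACGTG), the GC box (GGGCGG) and the p53 half-site consensus. Adipoq held 3 CCAAT boxes, at -34 to -30, -27 to -23 and -7 to -3 from the start, and 37.4% of 32851 RefSeq promoters held at least 1. The upstream start of Cidec held 1 match to the p53 half-site consensus at -167 to -158, as did 8.36% of all promoters. Lep held 1 C/EBP palindrome at -55 to -48, found in 0.183% of all promoters, and 1 GC box, found in 35.7%. Plin4 held 1 CCAAT box, and the Pparg starts held matches to the TATA box, the CCAAT box, the GC box and the half-site AGGTCA, the first of these found in 13.6% and the last in 16.3% of all promoters. The E-box (7.15% of all promoters) and the paired half-sites (0.0396%) had no match in these windows, and neither did any motif in those of Cfd, Plin1 and Retn. No match overlapped another. A match is a description of letters and not of binding.

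Of the 10 genes, Adipoq, Cfd, Retn, Lep, Plin1 and Car3 were low but present in p53+/+ SI and at or near 0 in p53-/- SI. Adipoq encodes adiponectin, an abundant adipokine, and had 40 and 51 counts in libraries 7 and 8 against 0 and 3 in libraries 9 and 10. Its level was 2.89 ± 0.589 CPM in p53+/+ and 0.0746 ± 0.106 CPM in p53-/- (mean ± SD, n = 2), and the pooled level was 41.2 times as high in p53+/+ (95% exact interval 13.7 to 204). This and the other intervals cover counting error only. Cfd encodes adipsin, or complement factor D, the serine protease that cleaves factor B in the alternative pathway, and had 175, 244, 0 and 1 counts in libraries 7 to 10. At 13.3 ± 3.54 against 0.0249 ± 0.0352 CPM, its ratio of 570 (interval 102 to 2.26e+04) rests on the single count in library 10. Retn encodes resistin, an adipokine named for insulin resistance, and had 19 counts in each p53+/+ library and 0 in each p53-/- library. With 3 counts set for each p53-/- library, it was at least 8.58-fold lower there. Lep encodes leptin, the satiety hormone whose level follows fat mass, and was barely detected, with 2, 5, 1 and 0 counts. Its ratio was 9.52 (interval 1.22 to 429), and it fell below the filter on low counts.

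Plin1 encodes perilipin 1, which coats the lipid droplet of adipocytes and gates lipolysis, and had 33 and 51 counts in p53+/+ and 0 in both p53-/- libraries. It was at least 19.1-fold lower in p53-/-, with 3 counts set for each library. Car3 encodes carbonic anhydrase 3, a cytosolic enzyme abundant in fat, liver and slow muscle, and had 198, 342, 5 and 5 counts. Its level of 17.2 ± 7.03 CPM in p53+/+ and 0.234 ± 0.0209 CPM in p53-/- gave a ratio of 73.4 (interval 39.6 to 154). For all 6 of these genes both p53-/- libraries lay below both p53+/+ libraries, as they did for 24.4% of all genes tested. The 6 were set apart after their values were seen, by at most 5 counts in each p53-/- library, which largely fixed this order. Together they summed to 467, 712, 6 and 9 counts, or 28.9, 46.2, 0.263 and 0.448 CPM, and the pooled sum was 107 times as high in p53+/+ (interval 64.5 to 192).

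**Figure D1:**
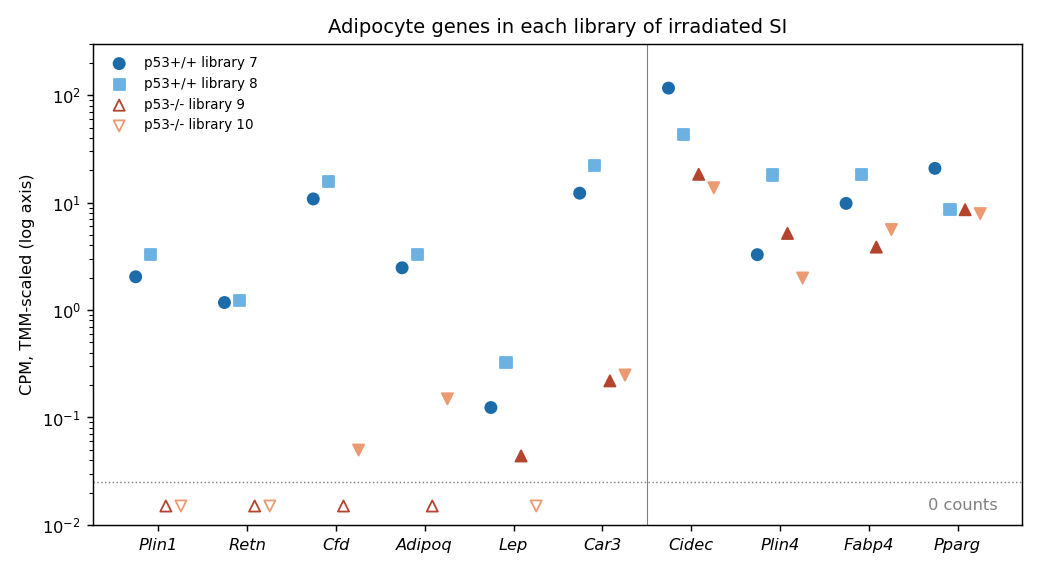
CPM of each of the 10 adipocyte genes (log axis) in the 2 p53+/+ libraries (filled circle and square) and the 2 p53-/- libraries (triangles), with open symbols below the dotted line for 0 counts. Left of the vertical line, the 6 genes with at most 5 counts in each p53-/- library stay under 0.25 CPM there, and on the right the other 4 genes stay between 1.99 and 18.4 CPM in p53-/- SI.

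The remaining 4 genes kept a level well above the floor in p53-/- SI. Cidec, which promotes fusion and growth of lipid droplets, was at 117 and 43.2 CPM in libraries 7 and 8 and at 18.4 and 13.8 CPM in libraries 9 and 10. The ratio was 4.98 (interval 4.58 to 5.42), and the 2 p53-/- libraries held 23.0% and 17.3% of the p53+/+ mean. Fabp4, a cytosolic carrier of fatty acids, was at 9.84, 18.3, 3.86 and 5.62 CPM in libraries 7 to 10, a ratio of 2.98 (interval 2.52 to 3.54). Pparg was at 20.9 and 8.69 CPM in p53+/+ and 8.59 and 7.91 CPM in p53-/-, so that library 8 was hardly above the p53-/- libraries. Its ratio was 1.80 (interval 1.57 to 2.08), and its fitted log2 fold change of -0.84 became -0.07 without library 7 and -1.34 without library 8. Plin4, a perilipin of nascent droplets that is also abundant in muscle, was at 3.28, 18.1, 5.17 and 1.99 CPM. Library 7 lay below library 9, so the genotypes overlapped, and the fitted log2 fold change of -1.57 turned to 0.13 without library 8. In GENCODE M21, Plin4 overlaps Hdgfl2 on the opposite strand, which had 405 to 565 counts, and Pparg overlaps an antisense gene, Gm44079, with at most 2 counts. Since the strand of the counting was not given, reads within such overlaps could not be assigned to one gene. Summed over these 4 genes, the level was 151, 88.3, 36.0 and 29.3 CPM, 3.66 times as high in p53+/+ (interval 3.44 to 3.89).

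Of the 10 genes, 9 passed the filter on low counts, and Lep did not. In the quasi-likelihood test of edgeR, with p-values adjusted over all genes by Benjamini-Hochberg, 0.193% of 16094 genes tested were called lower in p53-/- SI and 0.298% higher. Cfd and Car3, whose fall chose the set, were among those called lower. Without library 10 neither was called, without library 9 Car3 was not, and with scaling by library size only Cfd was not. Both p53-/- libraries lay below both p53+/+ libraries for 8 of the 9 genes, Plin4 being the exception, against 24.4% of all genes tested. As the same contrast chose the genes, nothing is read from these shares. The median fitted log2 fold change over the 9 genes was -5.22, or -3.10 with the genes at 3 counts or fewer in both p53-/- libraries set at their bound, and that over all genes tested was -0.01.

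Levels can be compared between genes only per length, here as CPM per kilobase of exon in GENCODE M21. In p53+/+ SI, Cidec was the highest at a mean of 43.0 CPM per kb, followed by Cfd at 14.5, Car3 at 6.01, Pparg at 5.0 and Fabp4 at 3.13 CPM per kb. Adipoq at 2.09, Plin4 at 1.85, Retn at 0.763, Plin1 at 0.576 and Lep at 0.0668 CPM per kb came after. The ranges of the 2 libraries separated Cidec from Cfd, Cfd from Car3, Retn from Plin1 and Plin1 from Lep, and overlapped for every other pair of neighbours in this order. In p53-/- SI the order was led by Cidec at 8.66, Pparg at 2.79, Fabp4 at 1.06 and Plin4 at 0.62 CPM per kb. Car3 at 0.0816, Adipoq at 0.054 and Cfd at 0.027 CPM per kb lay far below them, followed by Lep at 0.00653 CPM per kb, and Plin1 and Retn were at 0.

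Within p53+/+ SI, the genes split in another way. Library 8 exceeded library 7 by 1.46 times for Cfd (interval 1.20 to 1.79), 1.81 times for Car3 (1.52 to 2.17), 1.62 times for Plin1 (1.03 to 2.59) and 1.86 times for Fabp4 (1.53 to 2.27). Adipoq (1.34, interval 0.866 to 2.08), Retn (1.05, interval 0.525 to 2.09) and Lep (2.62, interval 0.429 to 27.5) did not differ between these libraries beyond counting error. Plin4 differed the most, by 5.52 times (4.10 to 7.55). Cidec and Pparg went the other way, and were 2.70 and 2.40 times as high in library 7. Per count of Adipoq, libraries 7 and 8 held 4.38 and 4.78 counts of Cfd, 4.95 and 6.71 of Car3, 0.825 and 1.0 of Plin1, and 3.98 and 5.53 of Fabp4. Over the same pair, Plin4 went from 1.33 to 5.47, Cidec from 47.1 to 13.1 and Pparg from 8.43 to 2.63 counts per count of Adipoq. The 6 genes near 0 in p53-/- SI were thus 1.60 times as high in library 8 as a sum (interval 1.42 to 1.80), and the other 4 genes 0.587 times (0.549 to 0.627). Cidec was the largest part of the second sum, while Fabp4 and Plin4, also in it, went the other way. Between the p53-/- libraries, Plin4 was 2.60 times as high in library 9 as in library 10 (interval 1.80 to 3.82), Cidec 1.33 times (1.14 to 1.56) and Fabp4 0.686 times (0.513 to 0.915), and Pparg did not differ beyond counting error (1.09, interval 0.877 to 1.35).

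**Figure D2:**
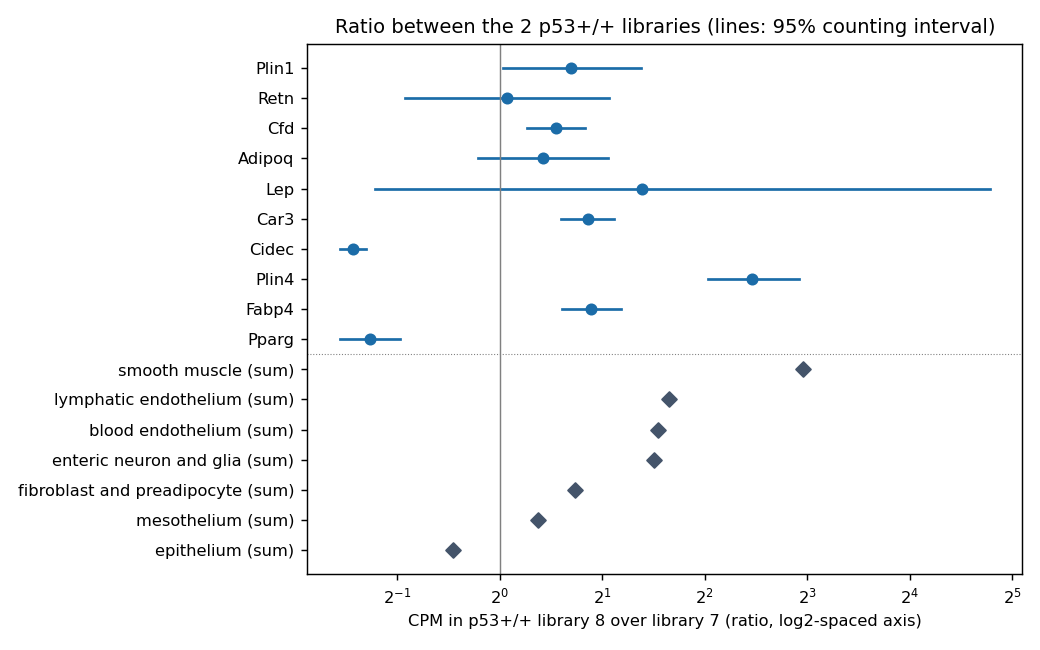
CPM in p53+/+ library 8 over library 7 (log2-spaced axis) for the 10 adipocyte genes, with 95% counting intervals as lines, and for the summed genes of 7 other cell types (diamonds, no interval drawn). Plin4 at 5.52 lies nearest to the smooth muscle sum at 7.75, and Cidec at 0.371 and Pparg at 0.417 lie on the side of the epithelial sum at 0.727. A link of these genes to either cell type was not tested.

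Genes of other cell types moved with the libraries as well, and their part in the values above was not tested. The summed level of 10 smooth muscle genes was 754, 5842, 1472 and 1020 CPM in libraries 7 to 10, and the p53+/+ libraries enclosed both p53-/- libraries. Library 7 was the lowest in this sum and library 8 the highest. The 6 adipocyte genes near 0 in p53-/- SI summed to 28.9 and 46.2 CPM in these libraries. Mesothelium, the covering of the mesentery and of the outer gut wall, was at 30.0, 38.9, 21.0 and 23.3 CPM over 9 genes, all detected in every library, and both p53-/- libraries lay below both p53+/+ libraries. The sum of all 9 was 1.56 times as high on average in p53+/+. Upk1b, at 14.0, 12.7, 13.4 and 14.4 CPM, made up much of it. The 8 genes without Upk1b, a choice made after their values were seen, summed to 16.0, 26.1, 7.54 and 8.90 CPM, 2.56 times as high on average in p53+/+. Of the 6 mesothelium genes tested, 0 were called in either direction by edgeR and 5 had a negative log2 fold change (median -1.04), with 0 higher and 1 lower at an unadjusted p under 0.05 and 1 lower by DESeq2. That gene, Upk3b, was at 7.06, 11.0, 2.41 and 2.59 CPM. Of all 16094 genes tested, 8165 had a negative log2 fold change, and 10% were higher and 7.92% lower at an unadjusted p under 0.05 by edgeR. DESeq2 called 4.47% lower of the genes to which it gave an adjusted p. Epithelial genes summed to 26114, 18988, 17532 and 14542 CPM, and blood endothelial genes to 36.0, 105, 87.4 and 104 CPM, so that both p53-/- libraries held more endothelial RNA than library 7. Fibroblast and preadipocyte genes summed to 890, 1478, 1212 and 1086 CPM and macrophage genes to 67.1, 190, 223 and 296 CPM. Of 10 pancreas genes, none passed the filter and the highest had 13 counts in a library. Brown fat genes summed to 24.7, 16.4, 15.6 and 15.8 CPM over 8 genes. Cox7a1, at 393, 226, 335 and 302 counts, made up most of this sum. Ucp1, the uncoupling protein that defines brown and beige fat, had 3, 1, 0 and 0 counts. Elovl3 and Zic1 were at 0 in all 4 libraries, and Dio2 and Cpt1b had at most 6 counts in any library. Cox8b had 0, 15, 0 and 1 counts, and Otop1 had 0, 0, 12 and 10. Liver genes summed to 351, 227, 529 and 395 CPM over 8 genes, most of it from Cps1 at 347, 219, 525 and 392 CPM. Alb and Ahsg were at 0 throughout, Ttr had 43, 31, 47 and 53 counts, and Fga had 0, 0, 32 and 9. Cyp2e1, an ethanol-metabolizing P450 that adipocytes also express, was at 1.86, 6.03, 0.0877 and 0.199 CPM. Its log2 fold change was -4.74 (SE 0.89, Benjamini-Hochberg adjusted p = 0.103 in edgeR's quasi-likelihood test).

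**Figure D3:**
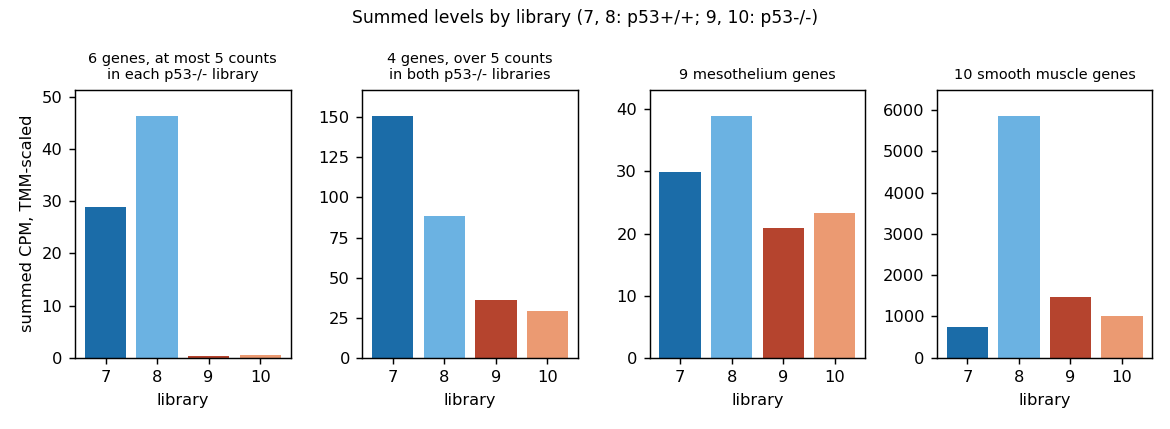
Summed CPM in libraries 7 and 8 (p53+/+, blue) and 9 and 10 (p53-/-, red), from left to right for the 6 adipocyte genes with at most 5 counts in each p53-/- library, the other 4 adipocyte genes, 9 mesothelium genes and 10 smooth muscle genes, each panel on its own linear axis from 0. The first sum falls from 28.9 and 46.2 to 0.263 and 0.448 CPM, and mesothelium from 30.0 and 38.9 to 21.0 and 23.3 CPM.

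Other genes of adipocyte function, many of which enterocytes and other cells that handle fat also use, had a median log2 fold change of -0.36, against -5.22 for the set, which was chosen for its fall. Single genes of these lists reached beyond Pparg, Fabp4 and Plin4 in size, in both directions. Of 66 such genes in 4 lists, 57 were tested, and 0 were called higher and 0 lower by edgeR's quasi-likelihood test. At an unadjusted p under 0.05, 5 were higher and 16 lower, while 10% of all genes tested were higher and 7.92% lower at that threshold. DESeq2 called 2 higher and 4 lower of the 56 genes to which it gave an adjusted p, and 5.47% higher and 4.47% lower of all such genes. Both p53-/- libraries lay below both p53+/+ libraries for 26 of the 57 genes and above them for 8, against 24.4% and 26.4% of all genes tested. Values and folds of the genes named below are from the same fit.

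Among lipid droplet and lipolysis genes, 11 of 14 were tested and the median was -0.54. Plin3, a droplet coat protein found in most cells, was the most abundant and was at 498 and 355 CPM in p53+/+ and 296 and 259 CPM in p53-/-. Plin2, the coat protein of droplets in enterocytes and other cells, had the highest log2 fold change, 0.09, at 80.4, 75.9, 77.9 and 88.6 CPM. G0s2, an inhibitor of the lipase Pnpla2, had the lowest, -1.17, at 1.11, 4.54, 1.01 and 1.49 CPM. Cidea and Plin5, both relatives of genes in the set, had at most 9 counts in any library and were not tested.

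Of 22 genes for fat uptake and triglyceride synthesis, all were tested, with a median of -0.39. DESeq2 called 4 of these lower. Dgat1, which makes triglyceride in enterocytes, was the most abundant in p53+/+ and was at 427, 417, 302 and 289 CPM. Thrsp, a lipogenic regulator, had the lowest log2 fold change, -1.90, at 1.67, 2.59, 0.395 and 0.746 CPM. The highest was 2.11 for Fabp5, an epidermal fatty acid-binding protein, and came from library 10 alone, at 20.4 CPM against 2.54 to 3.46 CPM in the other libraries.

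Surface and signalling genes of adipocytes had a median of -0.57 over 13 of 17 tested. Adrb3, the beta-adrenergic receptor of fat cells, had the lowest log2 fold change, -1.71, at 1.49, 4.28, 1.10 and 0.647 CPM. Lgals12, a galectin of lipid droplets, had the highest, 0.61, at 4.83, 4.15, 7.41 and 6.27 CPM. Slc2a4, the insulin-responsive glucose transporter of fat and muscle, was at 4.52, 34.6, 8.33 and 5.22 CPM. It was named after its values were seen, and was highest in library 8. Plin4 and the sums of smooth muscle, fibroblast and preadipocyte, mesothelium, and enteric neuron and glia genes were highest there too. No link between them was tested.

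Transcription factors of fat cell differentiation had a median of -0.14 over 11 of 13 tested. Cebpa, which acts with Pparg, was at 160, 93.4, 136 and 118 CPM. Of the other C/EBP factors listed, Cebpb was at 43.6, 44.0, 45.6 and 57.5 CPM. Cebpd was at 37.4, 32.1, 79.2 and 121 CPM, higher in both p53-/- libraries (log2 fold change 1.52). DESeq2 called Cebpd and Ebf1 higher, and edgeR called neither. Tle3, a co-regulator of Pparg, was the most abundant on average at 301, 351, 245 and 205 CPM, and Klf15 had the lowest log2 fold change, -1.20, at 5.69, 6.03, 2.81 and 2.29 CPM. Ebf1 had the highest, 3.22, and came from library 10, with 13.0 CPM against 0.619 to 1.36 CPM elsewhere. Ebf1 is also a B cell factor, and B cell and lymph node genes summed to 452 CPM in library 10, whose part in this value was not tested.

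**Figure D4:**
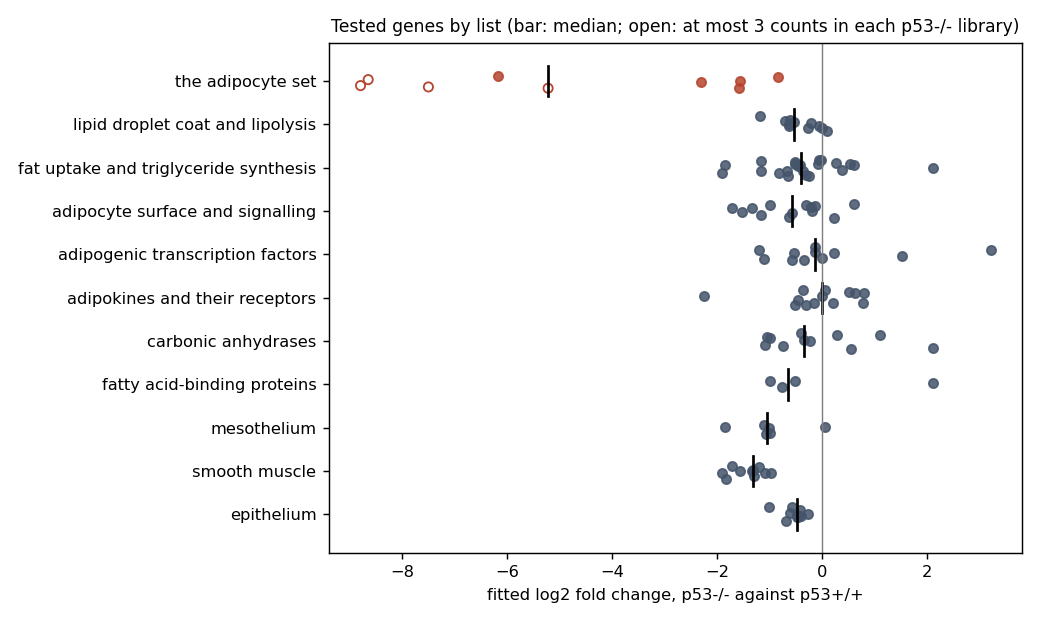
Fitted log2 fold change, p53-/- against p53+/+, of each tested gene (points) and the median (bar) for the adipocyte set of 9 genes and for the 10 other lists named on the vertical axis. Open circles mark the 4 genes of the set with at most 3 counts in each p53-/- library, whose fitted values depend on the prior count, and the medians of the 10 lists lie between -1.32 and 0.01, while those of the lists not drawn ranged from -1.34 for enteric neuron and glia to 7.99 for B cell and lymph node genes.

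The receptors and families of these genes were also read. Among other adipokines and adipokine receptors, 13 of 15 were tested and Angptl4 was called lower. Angptl4 inhibits lipoprotein lipase, is secreted by fat, liver and gut, and was at 128, 124, 22.4 and 30.9 CPM (log2 fold change -2.24, SE 0.21, Benjamini-Hochberg adjusted p = 0.0297 in edgeR's quasi-likelihood test). It was lower in 2 of 2 p53-/- libraries, and the adjusted p of the same edgeR test rose to 0.0681 without library 9 and 0.189 without library 10. The adiponectin receptors were at 269, 216, 204 and 189 CPM for Adipor1 and 289, 250, 211 and 181 CPM for Adipor2, and neither was called. Lepr, the leptin receptor, was at 2.10, 12.2, 7.23 and 5.72 CPM. Itln1, an intestinal lectin also named omentin, was the most abundant at 1058 to 2065 CPM, and Retnlb, the relative of resistin in goblet cells, had the highest log2 fold change, 0.80, at 0.0619 to 1.01 CPM.

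In the alternative complement pathway, on which adipsin acts, 0 of 9 genes were called by edgeR, with 3 higher and 1 lower at an unadjusted p under 0.05 and 1 in each direction by DESeq2. Cfb, the substrate of adipsin, was at 16.8, 20.2, 15.9 and 7.71 CPM (log2 fold change -0.64), and C3, the central component and the most abundant in p53-/- SI, at 33.2, 72.3, 93.5 and 142 CPM (log2 fold change 1.16). Cfi, an inhibitor of the pathway, had the highest log2 fold change, 3.12, at 1.05, 0.714, 7.28 and 8.16 CPM. Cd55, which protects host cells and was the most abundant in p53+/+ SI, had the lowest, -1.32, at 148, 92.4, 45.6 and 50.7 CPM.

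Of 15 other carbonic anhydrases, 11 were tested and 0 were called by edgeR, with 2 higher and 1 lower at an unadjusted p under 0.05 and the same counts by DESeq2. Car4, a membrane-bound enzyme of the gut surface, had the highest log2 fold change, 2.12, and the highest level, at 55.2, 83.2, 289 and 312 CPM, with an adjusted p of 0.0508 in the edgeR test. Car5b, a mitochondrial enzyme, had the lowest, -1.09, at 0.298 to 1.10 CPM. Among the fatty acid-binding proteins, the intestinal Fabp2 was at 3161, 2367, 1556 and 1691 CPM and the ileal bile acid carrier Fabp6 at 5483, 1836, 1639 and 2072 CPM. Per kilobase, Fabp2 averaged 2865 CPM in p53+/+ SI against 3.13 CPM for Fabp4. Of the 4 fatty acid-binding protein genes tested, 0 were called by edgeR, with 1 higher and 1 lower at an unadjusted p under 0.05 and 1 lower by DESeq2.

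The genes whose levels were most like the median profile of the 9 tested genes were then ranked, by the root mean square distance of centred log2 CPM over the 4 libraries, among 12665 genes with at least 20 counts in both p53+/+ libraries. Nxph3 came first, at a distance of 0.181 and 7.05, 7.79, 0.657 and 0.846 CPM in libraries 7 to 10. Krt15 (0.190), Psrc1 (0.196), Ccng1 (0.223), Zfp365 (0.239), Mgmt (0.286), Gm9949 (0.297), Slc4a11 (0.319), Psapl1 (0.335) and Ddit4l (0.360) followed. Of the 12665 genes ranked, only 49 belonged to the 4 lists of other adipocyte genes. None of them was among the nearest 50, and so small a share cannot make their absence informative. Angptl4, of the adipokine list, was at rank 27 and Cyp2e1 at rank 28. With 4 libraries, this ranking rests mostly on the difference between genotypes that also chose the set.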

How the data were processed

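Total RNA of the SI was selected with poly-T beads and sequenced by Novogene. The submitters' processing notes name fastp, HISAT2 2.0.5, featureCounts 1.5.0-p3 and DESeq2 1.20.0, and the genome build, the annotation and the strand of counting were not given in the sources used here. The deposited values are whole read counts per gene, not normalized by the authors, for 56748 genes in 4 libraries of 15005479 to 22173164 counts. Columns were assigned to genotypes by their names, which carry no replicate number of the labels.

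From these counts, genes with low counts were removed with filterByExpr, libraries were scaled by TMM, and 16094 genes were tested for a difference between the genotypes (two-sided quasi-likelihood test, edgeR 4.0.16, limma 3.58.1 and R 4.3.3; Benjamini-Hochberg threshold 0.05). Replicates are biological according to the paper, but the labels name no animals, so p-values measure the spread between these samples. CPM are TMM-scaled. Ratios of pooled counts carry 95% exact conditional intervals (Python 3.11.15, scipy 1.17.1), and a gene at 0 in both p53-/- libraries was given a bound at 3 counts per library. For the median over the set, tested genes at 3 counts or fewer in both p53-/- libraries were also set at this bound. The fit was tested on simulated data.

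The 10 genes and all lists were chosen with earlier results of these data known. Named genes were these 10, Trp53, the 10 nearest in pattern and, for each list of adipocyte function or gene family, any called gene, the highest and lowest fold change and the highest CPM, except 1 gene that is not reported here. Receptors and the substrate of adipsin, C3, Cebpa, Cidea, Plin5 and Fabp2 were added for their role or family. Slc2a4, Cebpb and Cebpd were named after their values were seen. Marker lists of other cell types are given as sums and counts. Named from them were markers at or near 0, genes that made up much of a sum, Upk3b and Cyp2e1. The other brown fat genes, Ttr and Fga were named after their values were seen. Among sums not given above, lymphatic endothelium was at 34.3 to 107 CPM over 7 genes. Enteric neuron and glia summed to 24.4 to 99.2 CPM over 8 and skeletal muscle to 50.8 to 113 CPM over 8. Red blood cell summed to 0.805 to 6.22 CPM over 6 and pancreas to 0.454 to 1.49 CPM over 10. Alternatives were RLE, upper-quartile and library-size scaling, a filter of at least 10 counts in every sample or none, DESeq2 1.42.0, a prior count of 2, and each library left out in turn.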

Additional observations from a re-analysis of the deposited data

How the results depend on the processing

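Against 48 genes higher and 31 lower in p53-/- SI, upper-quartile scaling gave 29 and 20, library size alone 26 and 20, no filter 1433 and 761, at least 10 counts in every sample 24 and 18, and DESeq2 812 and 663, and leaving out each library gave 0 to 680 and 0 to 344. The cause was not tested. For the other adipocyte genes, against 0 in both directions, no filter gave 5 higher and 6 lower and DESeq2 2 and 4, and leaving out each library gave 0 to 1 and 0 to 4. The median log2 fold change of the adipocyte set, -5.22, was -4.05 without a filter, which brings in Lep, -1.53 under the filter of 10 counts per sample, which leaves 4 genes, -3.61 with a prior count of 2, -3.10 with genes at the floor set at their bound, and -6.21 (without library 10) to -4.22 (without library 9) when a library was left out. RLE, upper-quartile and library-size scaling and DESeq2 moved it by less than the spread between replicates. Of 243 values of named genes under these alternatives, 1 reversed: the log2 fold change of Plin4 was 0.13 without library 8, in a range of -2.42 to 0.13. Over the scalings, the median log2 fold change of all genes shifted by at most 0.0664. Where 1 library of a genotype remained, it was assumed to vary like the others. No paired analysis was possible because the columns of the count table carry no replicate number of the labels.

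The depth limits what can be said of Adipoq, Plin1, Retn and Lep, which had at most 51 counts in any library. With 2 libraries per genotype, all irradiated and taken at one time, the genotype cannot be told apart from the stock of mice. Levels without irradiation were not analysed here.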
